A study of Mus musculus with 12 samples.

Results

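Disease-associated microglia genes, which microglia switch on in diseased nervous tissue, were followed through 12 RNA-Seq libraries of mouse retina. The set comprised Trem2, Tyrobp, Apoe, Cst7, Lpl, Spp1, Itgax, Clec7a, Axl and Gpnmb, taken by symbol, and all 10 were found among the 50559 genes of the deposited count table. Every group consisted of wild-type C57BL/6J mice whose retinas were collected on day 28, with 3 libraries per group. The IgG group received 30 µg of control rat IgG on day 1 and the APB5 group the same amount of APB5, an antibody against mouse PDGFRβ that blocks the recruitment of pericytes to growing vessels. The IgG+Mino and APB5+Mino groups received the same antibodies and then minocycline, a tetracycline known to dampen microglial activation, daily from day 5 to day 27 at 45 mg/kg. The antibody was given to the whole animal, and the libraries are of whole retina. A lower level of a microglial gene in such libraries may reflect fewer microglia or less RNA per cell, and these cannot be told apart. No label says which libraries came from which litter, so p-values measure the spread between these libraries.

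Microglia, the resident phagocytes of the retina, carry a set of homeostatic genes such as P2ry12, Tmem119 and Cx3cr1 at rest. Near damaged neurons, lipid debris or plaques they reduce that set and induce a disease-associated program. TREM2 is a surface receptor for lipids and lipoproteins, and it signals through the adaptor TYROBP (DAP12), which carries an ITAM that recruits the kinase SYK. APOE is a lipoprotein that carries cholesterol and is itself a ligand of TREM2. LPL hydrolyses triglycerides, SPP1 (osteopontin) is a secreted phosphoprotein that binds integrins and CD44, and GPNMB is a transmembrane glycoprotein of lysosomes and melanosomes. CLEC7A (dectin-1) is a β-glucan receptor, ITGAX (CD11c) an integrin subunit that pairs with ITGB2, AXL a receptor tyrosine kinase for GAS6 that takes part in the clearance of dying cells, and CST7 an inhibitor of cathepsins. Several of these genes have other sources in the eye: Müller glia and astrocytes make APOE, pigment cells make GPNMB and some retinal ganglion cells make SPP1.

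The 10 genes lie on 6 chromosomes of GRCm39 and all are protein coding. Trem2 spans 48653429 to 48661175 on the plus strand of chromosome 17, and Tyrobp spans 30113170 to 30117010 on the plus strand of chromosome 7. Apoe (19430034 to 19434947) and Axl (25456535 to 25488329) are on the minus strand of chromosome 7, and Itgax (127728668 to 127749829) is on its plus strand. Clec7a (129438554 to 129449742, minus strand) and Gpnmb (49013426 to 49047863, plus strand) are on chromosome 6. Cst7 (150412284 to 150420864) is on chromosome 2, Spp1 (104582165 to 104589235) on chromosome 5 and Lpl (69284603 to 69360100) on chromosome 8, all on the plus strand. Counts are over whole genes, so a value covers all exons of a gene.

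Promoters were examined because most of these genes moved together across libraries. RefSeq promoter windows (GRCm38.p6) were given for 8 of the 10 genes, Tyrobp and Lpl being the others, in 12 windows with 250 bases before the transcription start. GAGGAA, the core bound by PU.1, the factor that sets microglial identity, occurred on either strand in 7 of the 12 windows and in 5 of the 8 genes (Trem2, Apoe, Clec7a, Spp1 and Axl). It occurred in 23.3% of all 32851 windows and in 25.9% of all 27025 genes. The Clec7a windows overlap and hold the same match, so the count of windows includes that site more than once. TGANTCA, which takes in the AP-1 element, occurred in 2 of the 12 windows (Trem2 and Itgax) and in 6.75% of all windows. CACGTG, the E-box read by the lysosomal factors MITF and TFE3, occurred in 0 of the 12 windows and in 6.02% of all windows. These motifs do not overlap each other in the windows shown. The 150 bases before the start are printed for the receptor genes Trem2, Clec7a and Itgax, because these held the matches nearest to the start, with matches in capitals and each sequence read 5′ to 3′ on the gene's strand.
Trem2, chr17:48346251-48346400, plus strand: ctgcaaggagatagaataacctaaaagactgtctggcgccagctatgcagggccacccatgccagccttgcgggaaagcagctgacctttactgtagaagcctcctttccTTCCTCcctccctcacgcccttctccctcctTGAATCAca
Clec7a, chr6:129472786-129472935, minus strand: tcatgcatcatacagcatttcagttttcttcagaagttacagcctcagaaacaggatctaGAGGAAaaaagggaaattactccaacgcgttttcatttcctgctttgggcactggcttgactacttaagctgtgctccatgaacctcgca
Itgax, chr7:128129400-128129549, plus strand: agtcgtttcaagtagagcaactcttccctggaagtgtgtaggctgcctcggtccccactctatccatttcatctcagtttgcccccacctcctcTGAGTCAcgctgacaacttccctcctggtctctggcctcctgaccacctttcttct
In Trem2 the TGANTCA match lies at bases −9 to −3 and the PU.1 core at −40 to −35, on the opposite strand. In Clec7a the PU.1 core lies at −90 to −85, and in Itgax the TGANTCA match lies at −56 to −50. The AP-1 element has C or G at the open base, as in Itgax (TGAGTCA) but not in Trem2 (TGAATCA). A match of letters is a description and no evidence that a factor was bound here.

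Total counts ranged from 52740545 to 59411044 per library. APB5 replicate 3 stood apart from the other 11 libraries, with the highest TMM factor (1.117) and a first principal component score of 126.9 against −53.77 to 25.56. Genes of other cell types moved with it. In that library the summed level of 6 rod genes was 11490 CPM (counts scaled to library size, with TMM factors), against 43760 to 66640 CPM in the others. The summed level of 8 pigment epithelium and melanocyte genes was 974 CPM against 55.9 to 209, that of 12 homeostatic microglia genes 187 CPM against 27.3 to 85.0, and that of 6 neutrophil genes 3.39 CPM against 0.0585 to 0.535. For 8 monocyte and macrophage genes the sum was 20.1 CPM against 6.97 to 11.7. The part of these lists in the values of that library was not tested. Sex differed between groups, and neither it nor a batch is given in the labels. Xist was high in all IgG libraries, in APB5 replicate 3 and in APB5+Mino replicate 3, and the other 7 libraries, including all of IgG+Mino, carried Y-linked counts. Pdgfrb, which encodes the receptor that APB5 binds, was at 15.5 ± 3.97 CPM for IgG against 23.4 ± 13.2 CPM for APB5 (mean ± SD, n = 3), with 15.4 and 16.3 CPM in APB5 replicates 1 and 2.

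**Figure D1:**
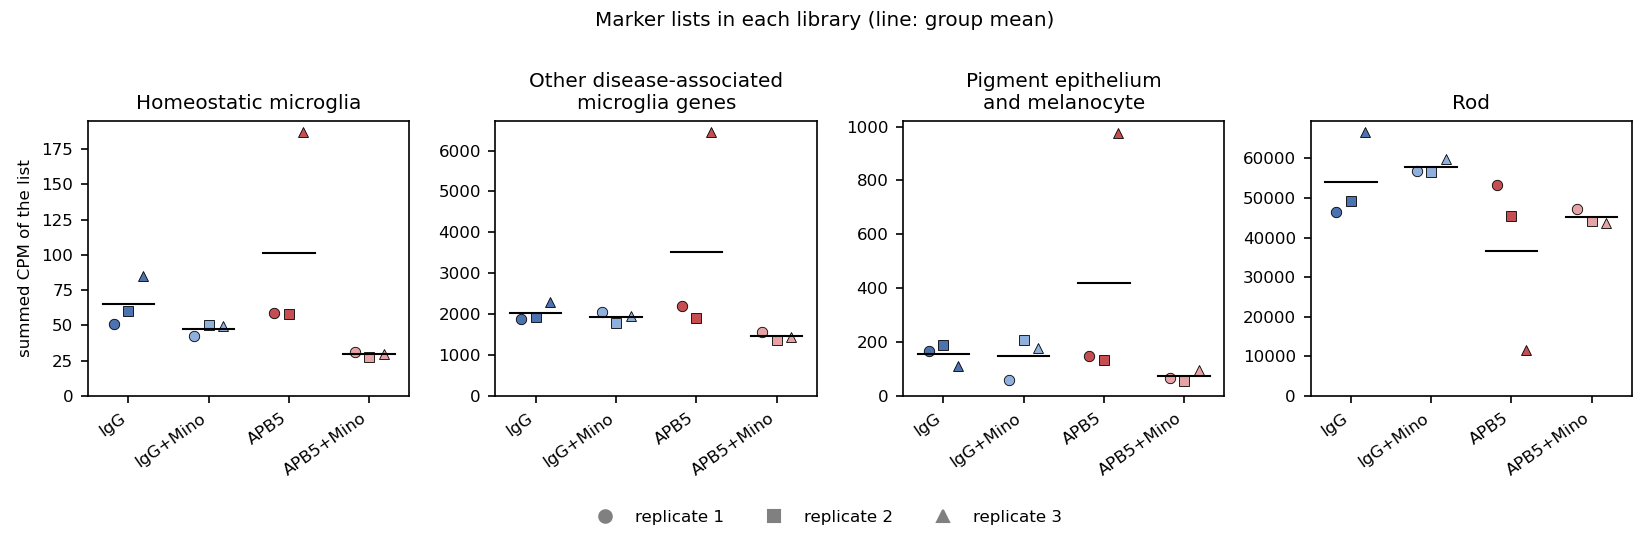
Summed CPM (y axis, linear from 0) of 4 gene lists in each library by group. Each point is a library, its shape gives the replicate number and the line is the group mean. APB5 replicate 3 had the highest values of the homeostatic, other disease-associated and pigment lists and the lowest rod value (11490 CPM), and the 3 APB5+Mino libraries had the lowest homeostatic microglia values (27.3 to 31.3 CPM).

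Per kilobase of merged exon, Apoe had the highest level in every group, with 213 ± 29.6 CPM per kb in IgG retinas (mean ± SD, n = 3). In IgG it was followed by Spp1 (6.59 ± 0.458), Gpnmb (3.07 ± 1.40), Tyrobp (2.39 ± 0.450), Lpl (2.21 ± 0.396) and Axl (1.44 ± 0.327). The ranges of Gpnmb, Tyrobp and Lpl overlapped, as did those of Lpl and Axl. Trem2 (0.342 ± 0.185), Clec7a (0.117 ± 0.0388), Cst7 (0.0669 ± 0.0397) and Itgax (0.0108 ± 9.57e-05) were lowest, and the ranges of Clec7a and Cst7 overlapped. Clec7a, Cst7 and Itgax had 24 counts or fewer in any IgG library, so their levels rest on few reads. The SD of Itgax is small only because each IgG library held 3 counts. In APB5+Mino, Cst7 was listed with 0 counts in all 3 libraries.

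The receptor pair was highest in APB5 and lowest in APB5+Mino. Trem2 had 1.10, 1.23 and 2.75 CPM in the IgG libraries, 0.873, 1.00 and 1.41 in IgG+Mino, 2.51, 2.34 and 20.9 in APB5, and 0.589, 0.507 and 0.565 in APB5+Mino. All APB5+Mino values lay below every other library, and the APB5 libraries overlapped with IgG because IgG replicate 3 reached 2.75 CPM. Tyrobp had 1.37, 1.56 and 1.97 CPM in IgG, 1.31, 1.37 and 1.15 in IgG+Mino, 2.71, 2.15 and 20.7 in APB5, and 0.786, 0.507 and 0.584 in APB5+Mino. For Tyrobp every APB5 library lay above every IgG library, and every APB5+Mino library below all the others.

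Of the lipid genes, Apoe had 735, 876 and 973 CPM in IgG, 593, 539 and 631 in IgG+Mino, 1179, 1124 and 4874 in APB5, and 403, 362 and 444 in APB5+Mino. The 4 groups of Apoe did not overlap at all, in the order APB5, IgG, IgG+Mino and APB5+Mino. Lpl had 29.3, 30.3 and 21.5 CPM in IgG, 24.3, 23.3 and 24.7 in IgG+Mino, 26.8, 26.8 and 67.4 in APB5, and 20.4, 18.1 and 20.03 in APB5+Mino. For Lpl, APB5 replicates 1 and 2 lay within the IgG range, and APB5+Mino lay below all others.

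Clec7a, the β-glucan receptor, had 0.210, 0.298 and 0.414 CPM in IgG, 0.182, 0.106 and 0.164 in IgG+Mino, 0.903, 0.401 and 8.96 in APB5, and 0.107, 0.0780 and 0.0753 in APB5+Mino. These values rest on 12, 17 and 24 counts in IgG, 50, 22 and 589 in APB5 and 4 to 6 in APB5+Mino. APB5 replicate 2 lay just below the highest IgG library, whereas all APB5+Mino libraries lay below all APB5 libraries. Itgax, the integrin subunit, had 3 counts in each IgG library, 2, 2 and 4 in IgG+Mino, 12, 7 and 216 in APB5 (0.217, 0.128 and 3.29 CPM) and 5, 2 and 5 in APB5+Mino. All APB5 libraries lay above all IgG libraries and above all APB5+Mino libraries. Axl, the efferocytosis receptor, had 10.2, 13.3 and 16.2 CPM in IgG, 13.2, 16.9 and 16.5 in IgG+Mino, 19.5, 17.0 and 48.3 in APB5, and 15.4, 14.6 and 12.4 in APB5+Mino. Its APB5 libraries lay above all other libraries, and the remaining groups overlapped.

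Spp1, the secreted phosphoprotein, had 17.2, 19.6 and 19.4 CPM in IgG, 21.5, 15.7 and 19.4 in IgG+Mino, 17.1, 13.4 and 99.9 in APB5, and 11.8, 9.65 and 11.8 in APB5+Mino. APB5 replicates 1 and 2 lay below all IgG libraries, so the higher APB5 mean came from replicate 3, and APB5+Mino was lowest. Gpnmb, the lysosomal glycoprotein, had 15.9, 31.0 and 14.2 CPM in IgG, 5.88, 11.9 and 26.96 in IgG+Mino, 26.8, 15.1 and 351 in APB5, and 5.11, 7.62 and 10.8 in APB5+Mino. APB5+Mino lay below APB5 and IgG and overlapped with IgG+Mino. The pigment list, which also moved with it, had 112 to 190 CPM in IgG, 60.6, 209 and 176 in IgG+Mino, 149, 132 and 974 in APB5, and 66.5, 55.9 and 97.2 in APB5+Mino. Its part in the Gpnmb values was not tested. Cst7, the cathepsin inhibitor, had 3, 4 and 9 counts in IgG, 3, 0 and 6 in IgG+Mino, 6, 0 and 44 in APB5 and 0 in all APB5+Mino libraries. The APB5 and IgG libraries of Cst7 overlapped.

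**Figure D2:**
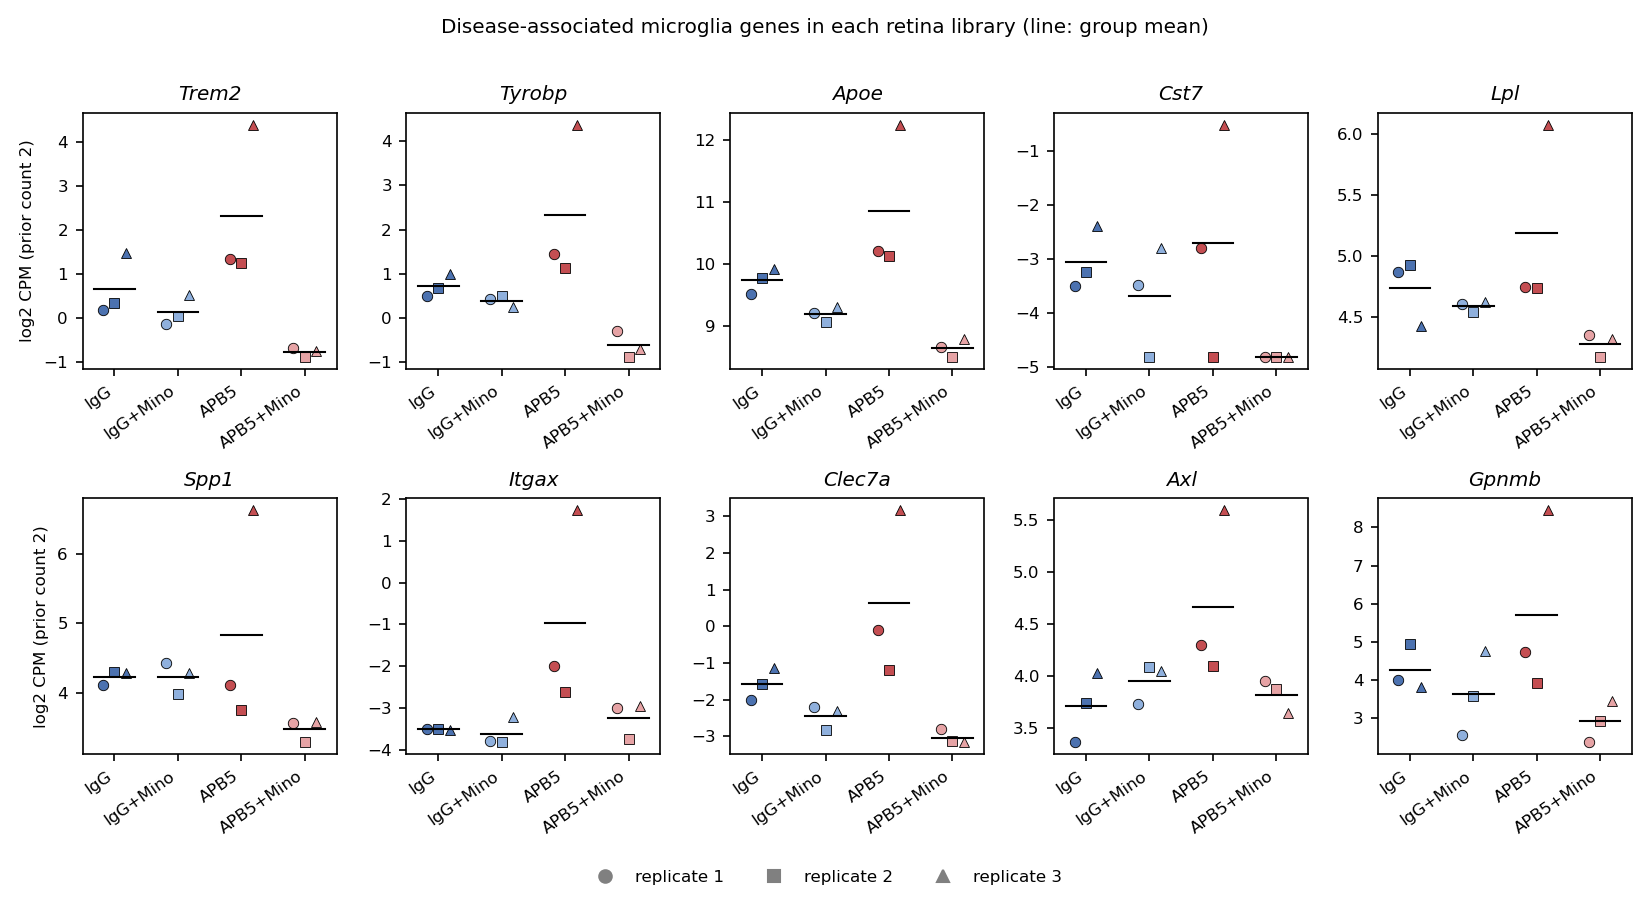
Log2 CPM (prior count 2) of the 10 genes in each library by group, with a point per library, its shape for the replicate number and a line for the group mean. APB5 replicate 3 (red triangle) was the highest library for every gene, and the APB5+Mino group mean was the lowest of the groups for 8 genes, the exceptions being Itgax and Axl.

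In APB5 replicate 3 all 10 genes were above both other APB5 libraries, from 2.52 times their mean for Lpl to 13.7 times for Clec7a, 16.7 times for Gpnmb and 19.1 times for Itgax. Trem2 was 8.64 times and Tyrobp 8.51 times as high. Over 15813 genes of at least 1 CPM the median of the same ratio was 0.981, and 3.84% of genes exceeded 3-fold and 0.519% exceeded 10-fold. Of the 7 members at that level, 5 exceeded 3-fold and 1, Gpnmb, exceeded 10-fold. APB5 replicates 1 and 2 averaged 3.29 times the IgG mean for Itgax, 2.12 times for Clec7a, 1.49 times for Tyrobp, 1.43 times for Trem2, 1.38 times for Axl and 1.34 times for Apoe. The mean of these libraries was 1.03 times the IgG mean for Gpnmb, 0.991 for Lpl, 0.816 for Spp1 and 0.584 for Cst7.

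The first comparison asks what blocking PDGFRβ in the newborn did to these genes at 4 weeks. Group means in APB5 retinas were higher than in IgG retinas for all members, but no member passed the test. Of the 10 genes, 8 passed edgeR's filter on low counts, and Cst7 and Itgax did not. Calls required both an adjusted P no higher than 0.05 and a fold of 1 or more, up or down, in log2 units. With edgeR's quasi-likelihood test and Benjamini-Hochberg adjustment over 20350 genes, 0 of 8 were called, where 0% of all genes tested were called higher. The log2 fold changes were 3.35 for Clec7a (SE 1.14), 2.69 for Gpnmb (SE 1.13), 2.37 for Tyrobp (SE 0.86), 2.34 for Trem2 (SE 0.91) and 1.48 for Apoe (SE 0.57). They were 1.22 for Spp1 (SE 0.72), 1.10 for Axl (SE 0.41) and 0.58 for Lpl (SE 0.38), and the adjusted P of the 8 ranged from 0.664 to 0.709. With an unadjusted P under 0.05 and the same fold, 6 of 8 members were higher, against 3.18% of all genes, and DESeq2 called 1 member, Clec7a (3.48, adjusted P = 0.0357), against 0.388% of all genes. When all 12 libraries were fitted with the level of Xist as a covariate, 7 of 8 members, all but Lpl, were called higher, against 4.99% of all genes. Xist was high in every IgG library and low in every IgG+Mino library, so the Xist term came mainly from APB5 and APB5+Mino. APB5 replicate 3 was the only APB5 library with high Xist, so that fit cannot tell sex from that library. The members' median log2 fold change was 1.91 and that of all genes −0.0024.

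Every APB5 library lay above every IgG library for 3 of the 8 tested members, Tyrobp, Apoe and Axl, against 7.84% of all genes. Leaving out a library cannot end such a separation, so for these 3 genes it had to hold without APB5 replicate 3. No further tested member was then separated in this way, and 11.6% of all genes were. With 3 libraries a group, an exact two-sided permutation test cannot give a P below 0.1, and it gave 0.1 for these genes and for Itgax. Itgax had 235 counts in APB5 and 9 in IgG, a ratio of 25.5 per scaled read (95% exact interval 13.2 to 56.5, counting error only). The ratio was 3.29 (1.42 to 8.27) when APB5 replicate 3 was left out. Cst7 had 50 counts against 16, a ratio of 3.06 (1.71 to 5.75), and 44 of the 50 came from replicate 3. Without that library the median log2 fold change of the 8 tested members was 0.45, with Clec7a at 1.01, Tyrobp at 0.57, Trem2 at 0.51, Axl at 0.47 and Apoe at 0.43. Gpnmb was then at 0.05, Lpl at −0.0071 and Spp1 at −0.29, and none was called. Of the 8, 1 member, Spp1, then lay lower in APB5 than in IgG without overlap, against 12.5% of all genes. The APB5 libraries that remain carry Y-linked counts and the IgG libraries do not, so antibody and sex cannot be told apart there.

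**Figure D3:**
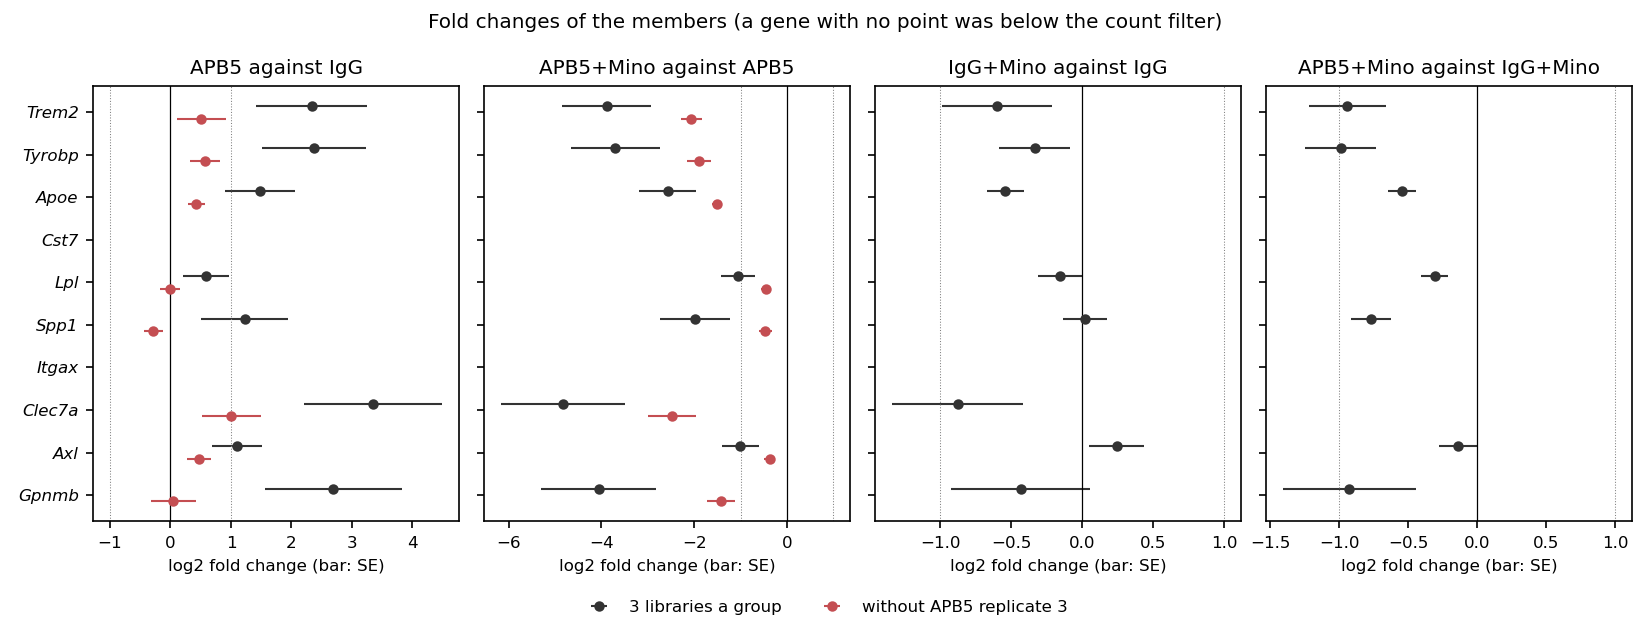
Log2 fold changes (x axis, bars are standard errors) of the members in 4 comparisons by edgeR. Black points use 3 libraries a group, red points leave out APB5 replicate 3, and dotted lines mark a log2 fold change of 1 in size. In APB5+Mino against APB5 all black points lie between −1.004 and −4.83, and the red points between −0.37 and −2.48.

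The second comparison asks what minocycline did in antibody-treated mice, and the levels of nearly all members were lower with it. Clec7a reached the count filter in no APB5+Mino library and was tested only through APB5, where it is high, so its place in the counts that follow supports nothing. APB5+Mino lay below APB5 in every library for all 8 tested members, against 23.3% of all genes, and also for Itgax. By edgeR, 0 of 8 were called, against 0.819% of 20281 genes called lower, with adjusted P from 0.0522 (Apoe) to 0.120 (Axl), and DESeq2 called 3, Apoe, Lpl and Clec7a, against 4.97% of all genes. Judged by the unadjusted P (under 0.05) and the fold threshold, all 8 were lower, against 6.43% of all genes. The log2 fold changes were −4.83 for Clec7a (SE 1.34), −4.06 for Gpnmb (SE 1.23), −3.88 for Trem2 (SE 0.96), −3.70 for Tyrobp (SE 0.95) and −2.57 for Apoe (SE 0.61). They were −1.98 for Spp1 (SE 0.75), −1.05 for Lpl (SE 0.37) and −1.004 for Axl (SE 0.39). The median was −3.14, against −0.020 over all genes.

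The number of calls depended on APB5 replicate 3. Without that library 4 of the 7 other members and Clec7a were called lower in APB5+Mino, against 2.53% of genes called lower. The groups again overlapped for none of the 8, which was fixed in advance, because they did not overlap with that library included. Without it 28.5% of all genes lay lower without overlap. Those called were Apoe, with a log2 fold change of −1.52 (SE 0.11) and an edgeR adjusted P of 0.000244, Trem2 at −2.06 (SE 0.23, adjusted P = 0.00119), Tyrobp at −1.90 (SE 0.26, adjusted P = 0.00269), Clec7a at −2.48 (SE 0.52, adjusted P = 0.00669) and Gpnmb at −1.42 (SE 0.30, adjusted P = 0.0116). Lpl (−0.46, adjusted P = 0.0101) and Spp1 (−0.47, adjusted P = 0.0397) passed the test by edgeR but not the fold threshold, and Axl (−0.37, adjusted P = 0.0510) passed neither. In a fit of all 12 libraries, which share an estimate of the spread, 8 of 8 members were called lower, against 5.38% of all genes, with edgeR adjusted P from 0.00934 to 0.0482. Leaving out APB5 replicate 2 gave 7 calls, against 5.04% of all genes. These were Trem2, Tyrobp, Apoe, Spp1 and Gpnmb besides Clec7a and Itgax, which both passed the filter only through APB5 and so support nothing. With Xist as a covariate 6 of 8 were called lower, all but Lpl and Axl, against 5.91% of all genes. That fit cannot tell sex from APB5 replicate 3, the only APB5 library with high Xist. With no count filter the calls were Trem2, Tyrobp, Apoe and Clec7a, against 1.05% of all genes, and with at least 10 counts in every library the call was Apoe, against 1.28%. What a shared replicate number marks is not known. Deviations from the group means correlated only weakly between same-number libraries of APB5 and APB5+Mino (0.119 to 0.169). Replicate 3 was the library with high Xist in both groups, so a shared sex cannot be told apart from another link. With the replicate number as a block 0 members were called (edgeR adjusted P from 0.0642 to 0.184).

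Among libraries with Y-linked counts, 2 in each group, the APB5+Mino mean was 0.142 times the APB5 mean for Clec7a, 0.226 for Trem2, 0.266 for Tyrobp, 0.304 for Gpnmb and 0.332 for Apoe. It was 0.372 for Itgax, 0.701 for Spp1, 0.718 for Lpl and 0.820 for Axl. Between the single libraries with high Xist, of which the APB5 library is replicate 3, the ratios were 0.00841 for Clec7a to 0.297 for Lpl, with 0.0270 for Trem2. The direction was thus the same in both sexes for these 9 genes. Cst7 had 0 counts against 50, a ratio of 0 (95% exact interval 0 to 0.0840, counting error only). APB5 replicate 1 held 6 of these counts and replicate 2 held 0, so no bound is given without replicate 3. Itgax had 12 counts against 235, a ratio of 0.0560 (95% exact interval 0.0285 to 0.0997, counting error only).

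In mice given control IgG, no member passed the test for minocycline. By edgeR 0 of 8 tested members were called, against 0.00993% of 20143 genes called lower. DESeq2 also called 0, against 0.0496%, and 0 passed the unadjusted P (under 0.05) plus the fold threshold, against 0.462%. The median log2 fold change was −0.38, against −0.010 for all genes. Apoe had the smallest P (log2 fold change −0.54, SE 0.13, edgeR adjusted P = 0.585), and Apoe and Clec7a were the 2 of 8 members whose groups did not overlap, both lower, against 7.48% of all genes. Clec7a passed the filter there only through IgG, where it is higher, and supports nothing. Clec7a was at −0.88 (SE 0.46), Trem2 at −0.60 (SE 0.39), Gpnmb at −0.43 (SE 0.49), Tyrobp at −0.34 (SE 0.25), Lpl at −0.16 (SE 0.16), Spp1 at 0.02 (SE 0.15) and Axl at 0.24 (SE 0.19). Itgax had 8 counts against 9, and Cst7 9 against 16. All IgG+Mino libraries carried Y-linked counts and all IgG libraries high Xist, so minocycline and sex cannot be told apart in this comparison.

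With minocycline in both arms, no member was called between the antibodies. Of 7 tested members, 0 were called by edgeR, against 0.349% of 20049 genes called lower, and 0 passed the unadjusted P (under 0.05) plus the fold threshold, against 0.808%. DESeq2 called Tyrobp (−1.03, adjusted P = 0.0156), against 0.394% of all genes. Apoe (−0.55, SE 0.10, edgeR adjusted P = 0.0209), Spp1 (−0.77, SE 0.15, adjusted P = 0.0219) and Tyrobp (−0.99, SE 0.26, adjusted P = 0.0442) had an adjusted P under 0.05 but missed the fold threshold, 3 of 7, against 3.28% of all genes that were lower by that P alone. Trem2 was at −0.94 (SE 0.28, edgeR adjusted P = 0.0583), Gpnmb at −0.93 (SE 0.48), Lpl at −0.31 (SE 0.10) and Axl at −0.14 (SE 0.14). With the replicate block Tyrobp was called (−1.004, edgeR adjusted P = 0.0340), against 0.459% of all genes, with at least 10 counts in every library 1 member was called, against 0.384%, and without IgG+Mino replicate 1 Trem2 and Gpnmb were called, against 0.884%. For Trem2, Tyrobp, Apoe, Lpl and Spp1, 5 of 7, the groups did not overlap, against 17.2% of all genes. Clec7a had 14 counts against 25, Itgax 12 against 8 and Cst7 0 against 9, which is at least 2.89-fold lower. Among libraries with Y-linked counts the ratio was 0.501 for Trem2, 0.506 for Tyrobp, 0.568 for Spp1, 0.652 for Apoe and 0.798 for Lpl.

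For the 7 members tested in both, the antibody difference had a positive sign without minocycline and a negative sign with it. When APB5 replicate 3 was left out, the first sign turned negative for Spp1 and Lpl. The interaction tests whether the antibody difference changed with minocycline. All IgG libraries had high Xist and all IgG+Mino libraries carried Y-linked counts, so sex and this interaction cannot be told apart. By edgeR on all 12 libraries, 0 of 8 members were called, against 0.0141% of 21228 genes called lower, with adjusted P from 0.167 (Tyrobp) to 0.299 (Lpl). Judged by the unadjusted P (under 0.05) and the fold threshold, 7 of 8 were lower, against 4.56% of all genes. The interaction was −3.94 on the log2 scale for Clec7a (SE 1.46), −3.35 for Tyrobp (SE 0.98), −3.26 for Trem2 (SE 1.04) and −2.02 for Apoe (SE 0.62). DESeq2 called 2, Clec7a and Tyrobp, against 1.13% of all genes, and with Xist as a covariate 7 of 8 were called, against 3.86% of all genes. The fit with Xist, too, cannot tell sex from APB5 replicate 3. Without APB5 replicate 3 the interaction was −0.99 for Apoe (SE 0.18, edgeR adjusted P = 0.0407), −1.57 for Tyrobp (adjusted P = 0.0695) and −1.47 for Trem2 (adjusted P = 0.187), and none was called.

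The summed level of homeostatic microglia genes also varied between libraries, so each member was set against the mean log2 CPM of 12 homeostatic microglia genes in the same library. It was 51.3 to 85.0 CPM in IgG, 42.5 to 50.03 in IgG+Mino, 59.1, 58.4 and 187 in APB5 and 27.3 to 31.3 in APB5+Mino. Relative to them Trem2 was at −0.69, −0.81 and −0.42 on the log2 scale in IgG and at 0.20, 0.24 and 1.86 in APB5. It was at −0.54, −0.45 and −0.64 in APB5+Mino, within the IgG range. Tyrobp was at −0.39, −0.47 and −0.89 in IgG, 0.31, 0.13 and 1.84 in APB5 and −0.14, −0.45 and −0.60 in APB5+Mino. Clec7a was at −2.90, −2.73 and −3.04 in IgG, −1.24, −2.20 and 0.63 in APB5 and −2.67, −2.71 and −3.08 in APB5+Mino.

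On this relative scale APB5 lay above IgG without overlap for 5 of 8 tested members, Trem2, Tyrobp, Apoe, Clec7a and Axl, against 3.19% of all genes. APB5+Mino lay below APB5 without overlap for 4 of 8, Trem2, Tyrobp, Apoe and Clec7a, against 0.483% of all genes. Clec7a was tested there only through APB5, where it is high, and supports nothing. APB5+Mino lay above APB5 for Lpl and Axl, as 91.1% of all genes did. Both shares depend on the reference, because the homeostatic genes were themselves lower in APB5+Mino. Relative values of APB5+Mino overlapped with IgG for Trem2, Tyrobp, Clec7a and Gpnmb and lay above IgG for Apoe, Lpl, Spp1 and Axl. The lower homeostatic genes of APB5+Mino raise such values for any gene, and 72.4% of all genes lay above IgG+Mino on this scale. Lying above IgG is thus no trait of these members. Spp1 and Gpnmb overlapped between APB5 and APB5+Mino.

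**Figure D4:**
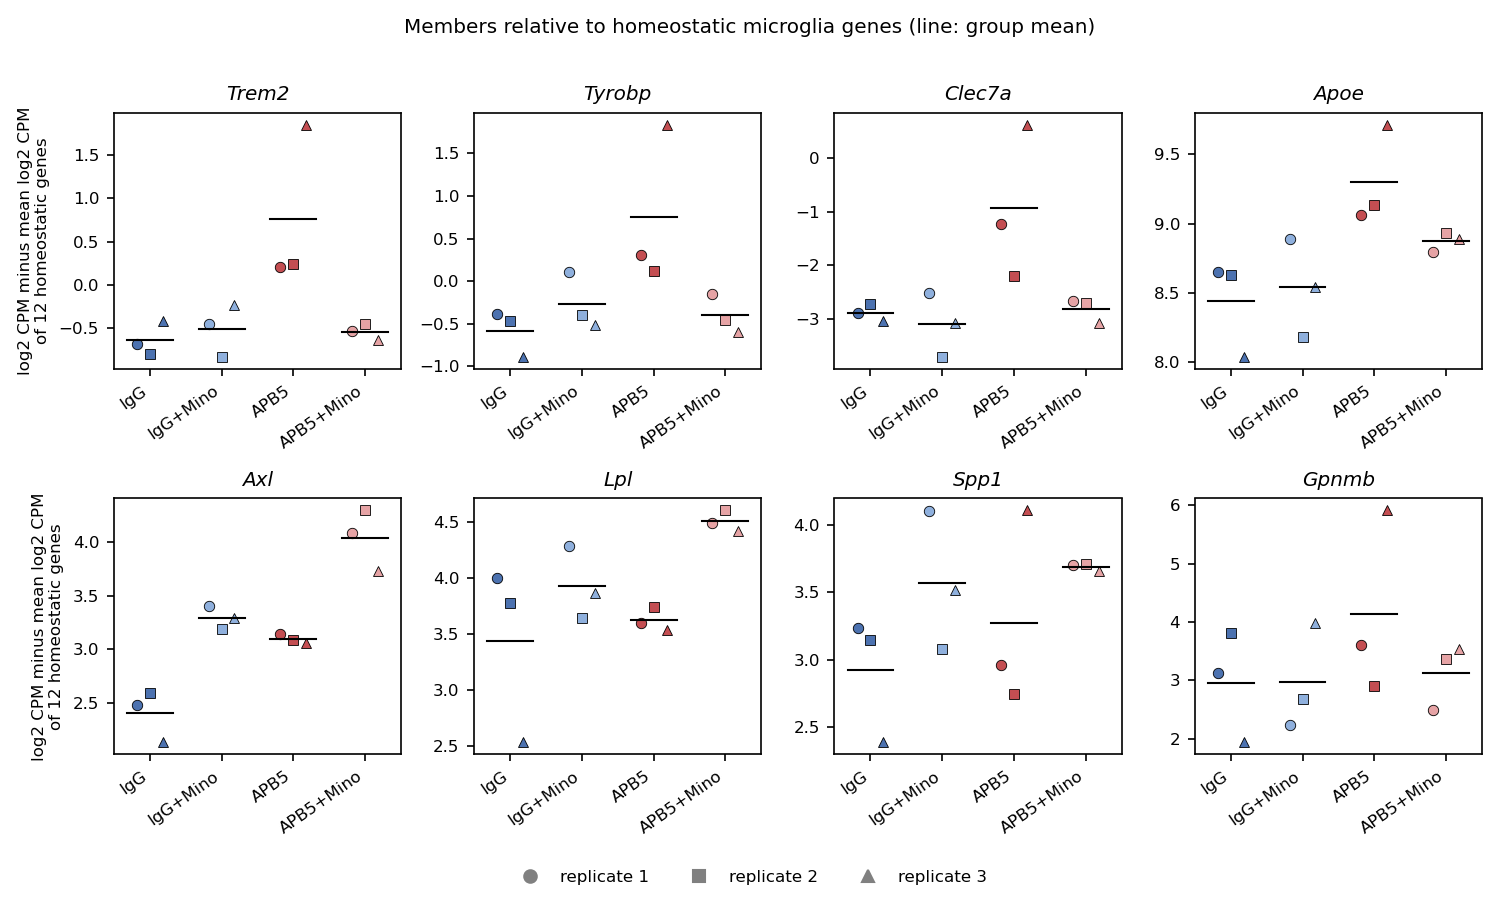
Log2 CPM of 8 members minus the mean log2 CPM of 12 homeostatic microglia genes in the same library (y axis), by group. Points are libraries, shapes give the replicate number and lines are group means. For Trem2, Tyrobp, Clec7a and Apoe all 3 APB5 libraries sit above the IgG and APB5+Mino libraries, whereas Axl and Lpl are highest in APB5+Mino.

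Members were alike across libraries to different degrees. Over the 12 libraries, which fall into 4 groups, Spearman's rho of log2 CPM was 0.951 for Apoe and Clec7a and 0.944 for Apoe with Trem2 and with Tyrobp, and lowest for Spp1 and Itgax (0.0420). The median of all pairs was 0.657, and 0.555 over the 11 libraries other than APB5 replicate 3. Apoe had the highest median rho to the others (0.776), followed by Trem2 (0.755). Axl and Itgax had the lowest (0.469 each). Among other genes of at least 1 CPM, those most like the mean standardized level of the 8 members that passed the filter were Gm3724 and Tmem176a (rho 0.993 each), Ppp1r1b (0.986), Cntf and Serpinh1 (0.979 each). Over 11 libraries these were 0.991, 0.991, 0.982, 0.973 and 0.973.

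The authors' deposited group means per transcript, in which the 3 libraries of a group were pooled, followed the gene counts in direction for all 10 members. Trem2 was read from RefSeq transcripts NM_031254.3 and NM_001272078.1. The former had a mean normalized count of 90.6 in IgG and 392 in APB5, and the latter 7.35 and 125. The latter thus made up 7.51% of the authors' Trem2 signal in IgG and 24.1% in APB5. Of the 1644 Trem2 gene counts in APB5, 1377 came from replicate 3, so the APB5 share rests mostly on that library. In the tables with minocycline its share was 13.3% in IgG+Mino and 15.9% in APB5+Mino. Each table was normalized on its own, and pooled means have no replicate error, so these shares carry no test. Apoe was read mainly from NM_001305844.1, with 47430 in IgG and 139000 in APB5.

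The wider program was followed in 20 other disease-associated microglia genes, led in level by the iron store Fth1 and the cathepsins Ctsd and Ctsb. In APB5 against IgG 18 were tested, 0 were called and all 18 had positive log2 fold changes, with a median of 1.04. In APB5+Mino against APB5 18 were tested and 0 were called, with a median of −1.55. Ctsd, the aspartic protease of lysosomes, had 450 ± 42.6 CPM in IgG, 1261 ± 1373 in APB5 and 275 ± 20.4 in APB5+Mino (mean ± SD, n = 3), and Ctsb 471 ± 97.8, 624 ± 300.0 and 353 ± 8.02. Fth1 had 670 ± 67.7, 771 ± 289.7 and 476 ± 57.2 CPM. Without APB5 replicate 3, 5 of the 18 fell: B2m, the light chain of MHC class I (−1.40), Lyz2, a lysozyme (−3.43), Cd52 (−1.69), Lilrb4a, an inhibitory receptor (−2.90), and Lgals3, galectin-3 (−1.51), with edgeR adjusted P from 0.000823 to 0.0147. The list's median against IgG was then 0.20.

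Of 12 genes of TREM2-TYROBP signalling, 9 were tested and 0 called in APB5 against IgG (median 0.60) and in APB5+Mino against APB5 (median −1.04). Adam10 and Adam17, the proteases that shed TREM2 from the cell surface, had log2 fold changes of 0.06 to 0.12 and −0.04 to 0.05 in the 4 comparisons. Inpp5d, a phosphatase that restrains the pathway, had 4.59 ± 0.512 CPM in IgG, 7.79 ± 2.78 in APB5 and 3.601 ± 0.215 in APB5+Mino. Without APB5 replicate 3 the medians were 0.050 and −0.25, and 1 gene, Vav1, a guanine nucleotide exchange factor, fell in APB5+Mino (−1.59, edgeR adjusted P = 0.0390).

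Of 15 ligands, receptors and co-factors of the members and their kin, 14 were tested. In APB5 against IgG and in APB5+Mino against APB5 0 were called, with medians of 0.56 and −0.34 (0.22 and 0.025 without APB5 replicate 3). Abca1, the transporter that loads APOE with cholesterol, was called higher in APB5+Mino against IgG+Mino (1.25, SE 0.10, edgeR adjusted P = 0.00342), the reverse of Apoe. Gas6, the ligand of AXL, had 277 ± 18.9 CPM in IgG, 279 ± 40.5 in APB5 and 225 ± 7.42 in APB5+Mino. Lrp1, a receptor for APOE, had 134 ± 19.4, 193 ± 78.0 and 206 ± 27.4 CPM, and Abcg1, a further cholesterol transporter, 127 ± 22.2, 156 ± 16.2 and 118 ± 6.38. With APB5 replicate 3 left out, Pros1, a ligand of receptors akin to AXL, rose in APB5+Mino against APB5 (1.23, edgeR adjusted P = 0.00237). So did Angptl4, an inhibitor of LPL (1.40, edgeR adjusted P = 0.00232), and Itgb2, the partner of ITGAX, fell (−1.42, edgeR adjusted P = 0.0158).

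Of the 12 homeostatic genes, all were tested in APB5 against IgG and 0 called (median 0.48, and −0.30 without APB5 replicate 3). In APB5+Mino against APB5, 2 of 11 fell, Cx3cr1, the fractalkine receptor (−3.84, SE 0.64, edgeR adjusted P = 0.0447), and Fcrls (−5.23, SE 1.10, adjusted P = 0.0476). With the replicate number as a block neither was called (edgeR adjusted P = 0.0641 for both). The same genes fell in APB5+Mino against IgG+Mino, by edgeR, at −2.21 (adjusted P = 0.0182) and −1.92 (adjusted P = 0.0150). Csf1r, the receptor for the growth factors that keep microglia alive, had 10.04 ± 3.11 CPM in IgG, 19.4 ± 18.01 in APB5 and 4.54 ± 0.588 in APB5+Mino, and Olfml3 had 9.08 ± 3.70, 14.95 ± 10.3 and 5.78 ± 0.346. With APB5 replicate 3 left out, 3 fell, Fcrls (−3.32), Cx3cr1 (−3.08) and Sall1, a transcription factor of microglial identity (−1.38), with edgeR adjusted P from 0.000421 to 0.0198. All 12 homeostatic genes had counts in every group, whereas the summed neutrophil level was at most 0.535 CPM outside APB5 replicate 3.

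Lists of other cell types that express members were followed in the same way. In APB5 against IgG, 0 genes were called in each of them. In APB5+Mino against APB5, 2 of 6 endothelial genes fell, the tight junction gene Cldn5 (−1.68, SE 0.16, edgeR adjusted P = 0.0417) and the receptor gene Tie1 (−1.502, SE 0.28, adjusted P = 0.0461), and 1 of 6 pericyte genes, Rgs5 (−1.36, SE 0.26, adjusted P = 0.0461). With the replicate block none of these 3 was called (edgeR adjusted P = 0.0641 for each). None of the Müller glia and astrocyte (6 tested), pigment (8), rod (6), monocyte and macrophage (4), dendritic cell (2), retinal ganglion cell (5), fat cell (3) and lens (5) genes was called there, and of the neutrophil genes 0 passed the filter. These counts, too, depended on APB5 replicate 3. Once it was left out, 4 of 8 pigment genes fell in APB5+Mino against APB5, Mlana (−2.41), Dct (−1.79), Pmel (−1.49) and Tyrp1 (−1.40), with edgeR adjusted P from 0.00677 to 0.0305. The macrophage genes Ms4a7 (−3.26, edgeR adjusted P = 0.00620) and Mrc1 (−1.79, adjusted P = 0.0124) fell, 2 of 4, and so did Gfap, the intermediate filament of reactive astrocytes and Müller glia (−2.13, SE 0.15, adjusted P = 0.000244). Cldn5 (−1.61) and Tie1 (−1.16) were again called lower, and Rgs5 (−0.99, edgeR adjusted P = 0.000823) missed the fold threshold. Against IgG, Gfap was then called higher in APB5 (1.45, SE 0.12, edgeR adjusted P = 0.0117). With all libraries, medians in APB5+Mino against APB5 were −0.12 for Müller glia and astrocytes, which make APOE, −2.57 for the pigment list, which shares its cells with Gpnmb, −0.16 for ganglion cells, which can make SPP1, and 0.40 for fat cells, a main site of LPL. Müller glia and astrocyte genes summed to 2820 to 3668 CPM in IgG, 3094 to 3396 in APB5 and 2610 to 2758 in APB5+Mino. Fat cell genes summed to 7.41 to 8.78 CPM in APB5 and 9.51 to 11.8 in APB5+Mino, and ganglion cell genes to 811 to 1214 and 808 to 902. Dendritic cell genes, a further source of Itgax, summed to 9.01 to 10.7 CPM in APB5 and 11.7 to 12.8 in APB5+Mino, and lens genes ranged from 1.88 to 1240 CPM over the 12 libraries. The part of these lists in the members' values was not tested.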

How the data were processed

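Single-end, strand-specific poly-A libraries of 12 retinas were demultiplexed with bcl2fastq 2.20 and aligned with DRAGEN to mm39 (the submitters' processing notes and the study's methods). The version of DRAGEN and whether counting used the strand are not given in the sources used here. The authors deposited raw counts of reads per gene for every library, without normalization. The authors also deposited result tables whose signal columns are mean normalized counts per transcript for each group. Their columns of fold changes and p-values were not used. A further 3 columns of the count table repeat others with identical values and were not used.

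Genes were tested in R 4.3.3 with edgeR 4.0.16 (filterByExpr, TMM, quasi-likelihood test without robust estimation, prior count 2), with Benjamini-Hochberg adjustment over all genes tested. Each pair of groups was fitted alone and the interaction in all 12 libraries. The SE is the size of the coefficient divided by the square root of F. CPM were scaled by TMM over all 12 libraries. Intervals for low counts are exact binomial ones and cover counting error only. DESeq2 1.42.0, other scalings, filters and covariates, the replicate block and each library left out in turn were alternatives, and the tests were checked on simulated data.

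The members and all lists (other disease-associated microglia genes, TREM2-TYROBP signalling, partners of the members, homeostatic microglia and the cell type lists) were chosen with earlier results of these data known. Named are the members, called genes of the lists (at most 5), the 3 genes of each microglial list with the highest mean CPM, the 5 genes most like the members, Pdgfrb and Xist. A gene of the homeostatic list, and an alternative that used it as a reference, are not reported here. Genes called without APB5 replicate 3 follow the same rule in an alternative fit.

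Neither the labels nor the paper say what a shared replicate number marks. For APB5+Mino against APB5, deviations from the group means correlated by 0.119 to 0.169 between libraries of the same number and by −0.133 to 0.0113 between others, so the numbers were taken to pair these libraries. These correlations are small. In both groups replicate 3 was the library with high Xist, so a shared sex and another pairing cannot be told apart. No pair of libraries within a group was a repeat deposit (chi-square per gene 13.0 or more). Levels per kilobase used merged exons of the GRCm39 annotation, and promoters came from RefSeq (GRCm38.p6).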

Additional observations from a re-analysis of the deposited data

Results flagged for a closer look

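The antibody difference had opposite signs without and with minocycline for Tyrobp and Apoe. For both genes every APB5 library lay above every IgG library and every APB5+Mino library lay below every IgG+Mino library. The first held for 7.84% and the second for 17.2% of all genes. The difference between these differences was −3.35 on the log2 scale for Tyrobp and −2.02 for Apoe, and its test by edgeR did not pass the threshold (adjusted p = 0.167 and 0.180). Without APB5 replicate 3 it was −1.57 for Tyrobp and −0.99 for Apoe, and neither was called. All IgG libraries had high Xist and all IgG+Mino libraries carried Y-linked counts, so sex and this difference cannot be told apart. Groups of 3 libraries were not tested for single libraries far from the others.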

How the results depend on the processing

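In APB5 against IgG, 0 members were called, 1 by DESeq2 (0.388% of all genes) and 7 with Xist as a covariate (4.99%). Here and below, fits with Xist as a covariate cannot tell sex from APB5 replicate 3. In APB5+Mino against APB5, where 0 were called, the count was 4 without a count filter (1.05% of all genes), 1 with at least 10 counts in every library (1.28%), 3 by DESeq2 (4.97%), 8 in a fit of all 12 libraries (5.38%) and 6 with Xist as a covariate (5.91%). Leaving out each library in turn gave 0 to 7, with 7 without APB5 replicate 2 (5.04%) and 5 without APB5 replicate 3 (2.53%), which include Clec7a and, among the 7, Itgax, both tested only through APB5. In APB5+Mino against IgG+Mino the count of 0 became 1 with at least 10 counts (0.384%), 1 by DESeq2 (0.394%), 1 with the replicate block (0.459%) and 3 with no fold threshold (3.28%), and 0 to 2 with each library left out (2 without IgG+Mino replicate 1, 0.884%). For the interaction it became 2 by DESeq2 (1.13%) and 7 with Xist as a covariate (3.86%). For APB5+Mino against APB5 the replicate block gave 0 calls, with edgeR adjusted p from 0.0642 to 0.184, and it ended the calls of Cx3cr1, Fcrls, Cldn5, Tie1 and Rgs5 (0.0641 each). For the members, outside APB5+Mino against IgG+Mino, it changed no count of calls. The numbers were taken to pair the libraries in APB5+Mino against APB5 and in none of the others.

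Signs turned in few cases. In APB5 against IgG, leaving out each library in turn gave −0.0071 (without APB5 replicate 3) to 0.81 (without APB5 replicate 2) for Lpl and, for the same libraries, −0.29 to 1.65 for Spp1. In IgG+Mino against IgG, Xist as a covariate gave 1.12 for Trem2, 1.37 for Tyrobp, 0.58 for Apoe, 0.54 for Lpl, 1.41 for Clec7a and 2.04 for Gpnmb, where all IgG+Mino libraries differ in Xist from all IgG libraries. Spp1 there was at −0.061 with library size only, −0.038 without IgG replicate 1, −0.085 without IgG+Mino replicate 1, −0.011 without IgG+Mino replicate 3 and at most 0.14 with a library left out, and Gpnmb ranged from −1.19 (without IgG+Mino replicate 3) to 0.0062 (without IgG replicate 2). The median rho of member pairs moved from 0.657 to 0.555 without APB5 replicate 3. In an alternative chosen after seeing the data, 1 member, Spp1, lay lower in APB5 than in IgG without overlap when APB5 replicate 3 was left out, against 0 with it (12.5% of all genes without it). The cause of these changes was not tested. Members under the count filter, with 24 counts or fewer in the IgG libraries, limit what can be said of Cst7, Itgax and Clec7a.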
